A study of Mus musculus with 36 samples.

Results

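Brain miRNAs of APP/PS1 mice were compared between 9 months and 6 months of age, with 3 small RNA libraries at each age. APP/PS1 mice carry the APP695swe and PS1-dE9 mutations, which cause early amyloid plaques, and the strain of every library is labelled C57BL/6. The sources used here do not give the promoters of the transgenes, the brain region or the sex of the mice. Wild-type C57BL/6 mice of 9 and 6 months, also with 3 libraries at each age, were fitted together with the APP/PS1 libraries. They entered the filter, the scaling and the estimate of the spread. They also served to test whether an age difference differed between genotypes. The whole series holds 36 samples, in 3 kinds of library and 4 groups of genotype and age, and 6 of the 36 samples are the APP/PS1 small RNA libraries described here.

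Every row of the miRNA table was a member, 1411 in all, of which 1312 carry a miRBase name and 99 a numbered name given by the authors. Of these, 1282 had at least 1 read in the 6 APP/PS1 libraries and 710 had reads in all 6. A filter on low counts kept 560 rows for testing, 5 of them with a numbered name. The 851 rows not tested never exceeded 26 reads in any APP/PS1 library, and the tested rows held over 99.9% of the reads. Library totals in the APP/PS1 mice were 7925799, 5766199 and 6064829 reads at 9 months and 5463369, 5677248 and 5082755 reads at 6 months. No label ties the 3 libraries of a group to different animals, so the p-values reflect the spread among these libraries alone, and that spread may be technical.

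An miRNA is a short RNA that guides Argonaute proteins to messenger RNAs, mostly through its seed, which is bases 2 to 8 counted from its 5′ end. Messages with matching sites are translated less or degraded, and miRNAs that share a seed can share targets. Several miRNAs mark particular tissues. The miR-200 family represses the transcription factors ZEB1 and ZEB2 and is typical of epithelia and of olfactory neurons, and the cluster of miR-183, miR-96 and miR-182 is typical of sensory cells such as photoreceptors and hair cells. Both are also known from the olfactory bulb, the most anterior part of the mouse brain.

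The mature sequences on which the results turn are given here 5′ to 3′ from RefSeq (build GRCm38.p6), with the seed in capitals. RefSeq held a sequence for 479 of the 560 tested rows. The first set is shown because its members had the largest differences between the ages. These miRNAs come from 3 short stretches of the genome. In GRCm38.p6, the main mature arms of miR-200b, miR-200a and miR-429 span 1791 bases of the minus strand at chr4:156053916-156055706. Those of miR-200c and miR-141 span 430 bases at chr6:124717917-124718346, and those of miR-183, miR-96 and miR-182 span 3771 bases at chr6:30165962-30169732. Shared seeds stand next to each other, with AACACUG in the first pair and AAUACUG in the next 3, while miR-183-5p, miR-96-5p and miR-182-5p each have a seed of their own.
miR-200a-3p: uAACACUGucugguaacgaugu
miR-141-3p: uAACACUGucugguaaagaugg
miR-200b-3p: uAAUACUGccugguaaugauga
miR-200c-3p: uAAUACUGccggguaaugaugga
miR-429-3p: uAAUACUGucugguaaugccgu
miR-183-5p: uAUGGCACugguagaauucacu
miR-96-5p: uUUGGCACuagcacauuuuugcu
miR-182-5p: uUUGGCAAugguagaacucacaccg

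The second set is shown because its members are among those of smallest p outside those families, the last with a lower level at 9 months and the others with a higher one. No seed is shared within it.
miR-679-5p: gGACUGUGaggugacucuuggu
miR-365-3p: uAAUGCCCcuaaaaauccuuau
miR-193b-3p: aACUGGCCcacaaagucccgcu
miR-34a-5p: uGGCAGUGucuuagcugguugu
miR-149-5p: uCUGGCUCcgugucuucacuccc
miR-136-3p: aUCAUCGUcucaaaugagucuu

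Before the comparison, the libraries were set against each other. On the first principal component of all tested miRNAs, which held 62.0% of the variance, APP/PS1 libraries 1 and 2 at 6 months and wild-type libraries 1 and 3 at 6 months lay between -19.95 and -9.38. The other 8 libraries lay between 0.79 and 9.37. Without the 12 tested rows of the miR-200 family and the miR-183 cluster the first component held 19.5% of the variance. A result that rests on libraries 1 and 2 at 6 months is therefore given with and without them. Messenger RNA of long RNA libraries with the same titles was used to check the tissue label. Summed markers of neurons were at 1681, 1596 and 1601 FPKM (fragments scaled to transcript length and library total) at 9 months and 1594, 1551 and 1673 FPKM at 6 months. All 7 retinal markers were under 1 FPKM in all 6 APP/PS1 libraries, although the extraction protocol in the labels names retinas and the tissue label reads brain.

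Across the 560 tested miRNAs, 0 passed the threshold of an adjusted p under 0.05 with edgeR's quasi-likelihood test, which is 0.0% called. At an unadjusted p under 0.05 there were 44 (7.86%), of which 25 were higher at 9 months (4.46%) and 19 lower (3.39%). DESeq2 on the same counts called 14 lower and 0 higher, or 2.5% of those tested. In CPM (reads of an miRNA scaled to the total reads of its library), 41 miRNAs were higher in every 9-month library than in any 6-month library (7.32%) and 15 were lower in every one (2.68%). With 3 libraries against 3, an exact permutation test cannot give a two-sided p below 0.1. The median log2 difference (9 minus 6 months) was 0.02, with quartiles of -0.12 and 0.14, and 509 of the 560 lay within 0.5 of 0. Among the 336 miRNAs with a mean of at least 100 reads, the median coefficient of variation between libraries was 7.74% at 9 months and 13.0% at 6 months.

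**Figure D1:**
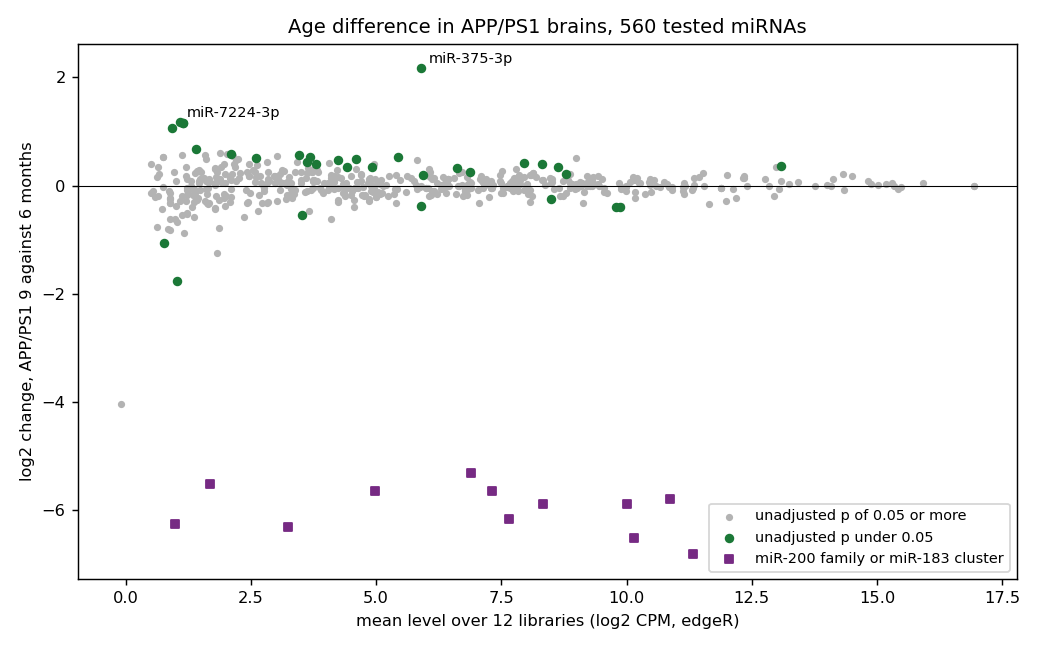
The log2 difference between APP/PS1 brains of 9 and 6 months (y axis) is plotted against the mean level over 12 libraries in log2 CPM (x axis) for 560 tested miRNAs, each a point, with the miR-200 family and the miR-183 cluster marked. Most points lie within 0.5 of 0, and the 12 marked rows lie below -5.

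The plot of difference against level shows where the large values were. Of 21 miRNAs whose log2 difference was beyond 1 in either direction, 10 had a mean of at least 100 reads. Those 10 were 9 rows of the miR-200 family and the miR-183 cluster, all lower at 9 months, and miR-375-3p, higher at 9 months.

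The miR-200 family and the miR-183 cluster had the lowest values at 9 months relative to 6 months, but only 2 of the 3 libraries at 6 months were above the 9-month libraries. Of their 16 rows in the table, 12 passed the filter, and all 12 were among the 19 with an unadjusted p under 0.05 and a lower level at 9 months. Summed over its members, the miR-200 family had 825, 610 and 1684 reads at 9 months and 171174, 32764 and 644 reads at 6 months. For the miR-183 cluster the sums were 1152, 917 and 1152 reads at 9 months and 137129, 24098 and 737 reads at 6 months. Libraries 1 and 2 at 6 months were high and library 3 lay within or beside the range of the 9-month libraries, so the ages overlapped in both sums.

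Within the family, miR-200a-3p was the most abundant, with 47.8, 40.9 and 135.9 CPM at 9 months and 19593, 3695 and 60.4 CPM at 6 months. Its log2 difference was -6.81 with a standard error of 1.62 and an adjusted p of 0.111 (edgeR). Only the first pair of 6-month libraries stood above the 9-month libraries. The second most abundant member, miR-200b-3p, had 39.5, 44.6 and 84.1 CPM at 9 months and 7798, 1396 and 42.1 CPM at 6 months, with a log2 difference of -5.89 ± 1.43 (SE). With the same seed as miR-200b-3p, miR-429-3p had 5.68, 6.42 and 14.8 CPM at 9 months and 1505, 261 and 10.6 CPM at 6 months, a log2 difference of -6.16 ± 1.46 (SE). In each of the 3, library 3 at 6 months lay among the 9-month values.

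From the separate stretch on chromosome 6, miR-200c-3p had 3.53, 2.25 and 22.8 CPM at 9 months and 875, 154.1 and 1.97 CPM at 6 months. Its partner miR-141-3p had 0.252, 1.56 and 4.45 CPM at 9 months and 231, 49.8 and 0.393 CPM at 6 months. Their log2 differences were -5.30 ± 1.59 and -5.64 ± 1.54 (SE), with adjusted p of 0.209 and 0.167 (edgeR). Here too libraries 1 and 2 at 6 months were high, and at 9 months library 3 was the highest of its group for both. The opposite arm miR-200b-5p had 2, 3 and 2 reads at 9 months and 401, 55 and 2 reads at 6 months.

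In the sensory cluster, miR-182-5p had 95.3, 106.8 and 122.8 CPM at 9 months and 14146, 2364 and 94.2 CPM at 6 months. The level of miR-183-5p was 36.1, 36.2 and 46.7 CPM at 9 months and 8646, 1450 and 36.8 CPM at 6 months. For miR-96-5p it was 14.00, 15.96 and 19.95 CPM at 9 months and 2290, 427 and 13.8 CPM at 6 months. The 9-month libraries of these 3 miRNAs lay close together, with coefficients of variation of 12.8%, 15.3% and 18.2%, while at 6 months they were 136.3%, 136.7% and 133.2%. Their log2 differences were -5.78 ± 1.39, -6.52 ± 1.52 and -5.88 ± 1.40 (SE), each with an adjusted p of 0.111 (edgeR). The passenger arm miR-182-3p had 0, 0 and 1 reads at 9 months and 73, 10 and 1 reads at 6 months.

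Across the 12 rows the levels of library 1 at 6 months were 3.79 to 7.59 times those of library 2, with a median of 5.72. In the 9 rows with a mean of at least 100 reads, library 2 was at 18.8 to 126.7 times the level of library 3. Wild-type brains of 9 months had 415 to 763 reads of the miR-200 family, against 22620, 3198 and 40218 reads in wild-type brains of 6 months. The sums of the miR-183 cluster were 798, 705 and 1273 reads in the wild type at 9 months and 20796, 2992 and 31193 reads at 6 months. So in the wild type all 3 libraries at 6 months were above those at 9 months, by unequal amounts. The log2 age difference of miR-200a-3p was -6.81 in APP/PS1 mice and -5.17 in the wild type, and these differed by -1.64 with an adjusted p of 0.974 (edgeR). For miR-183-5p the values were -6.52 in APP/PS1 mice and -4.33 in the wild type, with a difference of -2.19 and an adjusted p of 0.948.

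Leaving out libraries moved these rows in opposite ways. Without library 3 at 6 months, 12 of 577 tested miRNAs were called lower at 9 months (2.08%), and these were the 12 rows of both families, with log2 differences of -7.40 to -5.89 and adjusted p of 0.00362 to 0.0163 (edgeR). Without libraries 1 and 2 at 6 months, which leaves 1 library assumed to vary like the other groups, the log2 difference was 0.27 for miR-200a-3p, 0.38 for miR-200b-3p, 0.09 for miR-183-5p, 0.18 for miR-182-5p and -0.28 for miR-429-3p. Their adjusted p was then 0.992. All 12 rows were also among the 14 called by DESeq2, with adjusted p of 7.93e-05 for miR-200a-3p and miR-183-5p to 0.0476 for miR-141-5p.

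**Figure D2:**
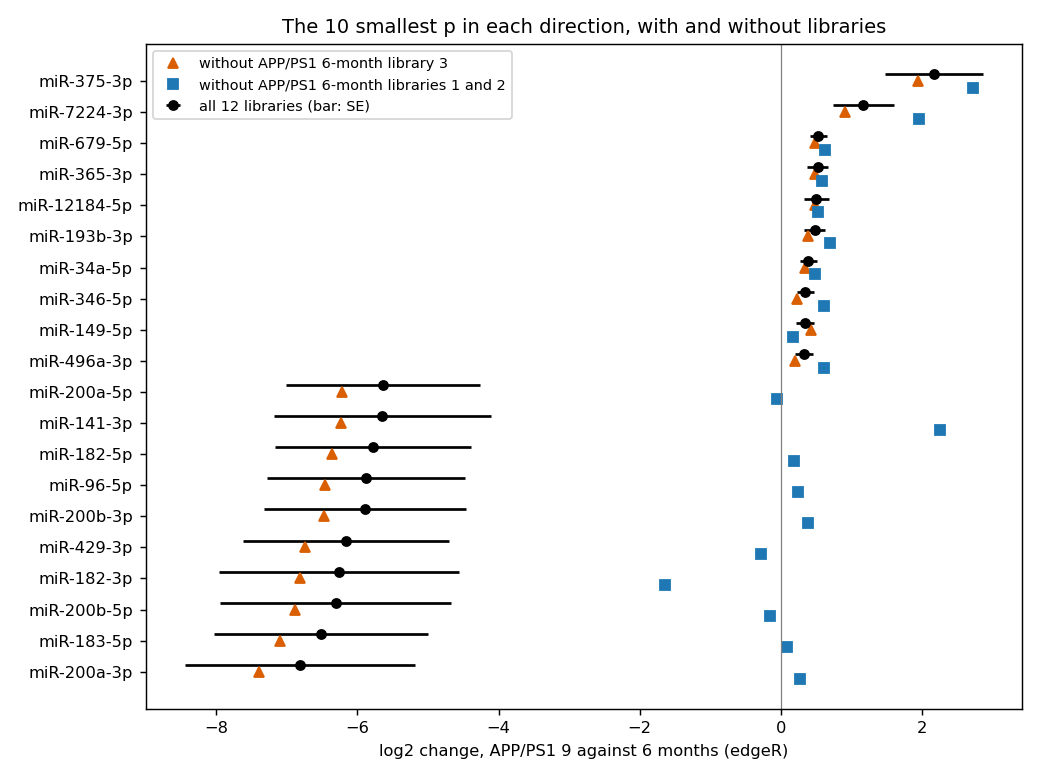
Log2 differences between APP/PS1 brains of 9 and 6 months are shown for the 10 miRNAs of smallest p in each direction, with all libraries (bars give the standard error), without library 3 at 6 months, and without libraries 1 and 2 at 6 months. The miRNAs with lower levels at 9 months lie near -6 with all libraries and without library 3, and near 0 without libraries 1 and 2 except for miR-141-3p, which lies above 0, and miR-182-3p, which lies below 0, while those with higher levels lie above 0 in all of these fits.

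The long RNA libraries with the same titles were read for messages of the olfactory bulb, a list of 8 genes that was chosen after these values were seen. Their summed level was 8.11, 8.13 and 7.49 FPKM at 9 months and 64.7, 15.4 and 5.91 FPKM at 6 months. The order of the 3 libraries at 6 months was the same as for the miR-200 family. Omp, the olfactory marker protein of mature olfactory neurons, was at 0.203, 0.130 and 0.312 FPKM at 9 months and 9.70, 1.12 and 0.373 FPKM at 6 months. Eomes, a transcription factor of the bulb's projection neurons, was at 0.045, 0.163 and 0.104 FPKM at 9 months and 3.10, 0.749 and 0.0136 FPKM at 6 months. Tbx21, another transcription factor of those neurons, was at 0.049, 0.044 and 0.015 FPKM at 9 months and 1.46, 0.233 and 0.0167 FPKM at 6 months. In Omp, Eomes and Tbx21, libraries 1 and 2 at 6 months stood above the other APP/PS1 libraries. That did not hold for library 2 in Th and Nmb, which are also on the list. Th was at 3.102 FPKM in library 2 at 6 months and 4.404 FPKM in library 2 at 9 months. Nmb was at 2.518 FPKM in library 2 at 6 months and 2.593 FPKM in library 3 at 9 months. Library 1 at 6 months was the highest APP/PS1 library in Th and Nmb too. None of the 8 messages was at 0 in all 6 libraries. In the wild type the sums were 7.11, 8.16 and 6.99 FPKM at 9 months and 19.99, 11.4 and 24.3 FPKM at 6 months. In bulk tissue a smaller number of cells of a type and less RNA per cell cannot be told apart. The part of these messages and their source in the miRNA result was not tested.

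**Figure D3:**
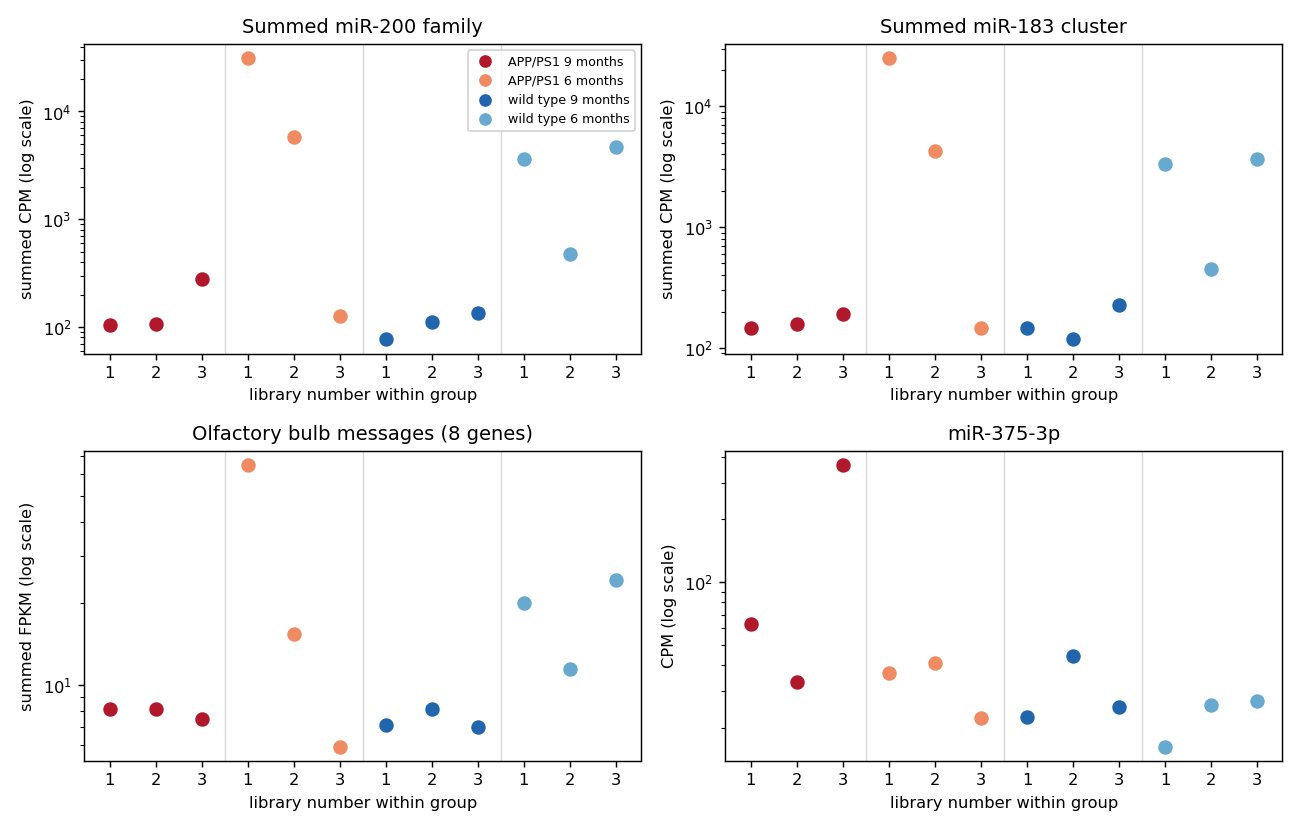
The panels give, for each of 12 libraries on log axes, the summed CPM of the miR-200 family, the summed CPM of the miR-183 cluster, the summed FPKM of 8 olfactory bulb messages and the CPM of miR-375-3p. APP/PS1 libraries 1 and 2 and wild-type libraries 1 and 3 at 6 months are the highest in the first 3 panels, and APP/PS1 library 3 at 9 months is the highest in the last.

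The panels by library also show miR-375-3p, an miRNA of pituitary and pancreatic endocrine cells. It had 62.8, 33.1 and 364 CPM at 9 months and 36.6, 41.0 and 22.4 CPM at 6 months. Library 3 at 9 months was far above the other 5, and the ages overlapped. Its log2 difference was 2.17 ± 0.69 (SE) with an adjusted p of 0.274 (edgeR), and without library 3 at 9 months it was 0.51 with an adjusted p of 0.928. Pomc, the pituitary precursor of corticotropin, was at 13.8, 3.93 and 228 FPKM at 9 months and 0.779, 1.40 and 0.882 FPKM at 6 months in the long RNA libraries. Of 6 pituitary genes listed, 5 were in the table, and their sum was 50.6, 19.98 and 241.9 FPKM at 9 months and 1.75, 14.5 and 7.93 FPKM at 6 months. Cga, the common subunit of pituitary glycoprotein hormones, was at 0.293, 0.157 and 5.19 FPKM at 9 months and at 0 in all 3 libraries at 6 months. Gh, growth hormone, did not follow that order, with 31.1, 13.2 and 7.94 FPKM at 9 months and 0.828, 10.1 and 6.20 FPKM at 6 months. Prl, prolactin, was at 5.18, 2.62 and 1.03 FPKM at 9 months and 0.145, 2.95 and 0.777 FPKM at 6 months. In both, library 3 was the lowest at 9 months and the ages overlapped. Tshb, the specific subunit of thyrotropin, was under 1 FPKM in all 6. Of 10 tested miRNAs listed for pituitary hormone cells, 2 lay above 0 and 8 below, with 1 higher and 4 lower at an unadjusted p under 0.05. The 4 lower rows were the arms of miR-141 and miR-200b, which belong to the miR-200 family described above. The part of these messages and miRNAs in the miR-375-3p value was not tested.

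The 25 miRNAs with an unadjusted p under 0.05 and a higher level at 9 months, miR-375-3p among them, had log2 differences of 0.20 to 2.17, with a median of 0.46. In 18 of the 25 the ages did not overlap, beside 41 of all 560 tested miRNAs in that direction (7.32%). None of the 25 changed sign when libraries 1 and 2 at 6 months were left out. The 25 were picked by p on these same libraries, so both results were partly fixed by that choice. In the wild type, where the median over all 560 tested miRNAs was -0.003, 11 of the 25 also had a log2 difference above 0. No adjusted p among them was under 0.05 with edgeR or DESeq2, and they are described by their values.

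The smallest p among them belonged to miR-679-5p, at chr12:109715587-109715608 in the imprinted Dlk1-Dio3 domain, a region whose maternal copy makes a large group of brain miRNAs. It had 16.5, 13.5 and 14.8 CPM at 9 months and 9.33, 11.98 and 9.64 CPM at 6 months. All 3 libraries at 9 months were above all at 6 months, with means of 14.97 ± 1.505 CPM at 9 months and 10.3 ± 1.45 CPM at 6 months (SD, n = 3 each). Its log2 difference was 0.53 ± 0.12 (SE) with an adjusted p of 0.111 (edgeR). In the wild type it was -0.12, and the difference between the genotypes was 0.66 with an adjusted p of 0.432.

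Among the 10 smallest p were also miR-365-3p and miR-193b-3p, which are known from muscle and brown fat. On chromosome 16 the hairpin of miR-193b lies next to 1 of the 2 hairpins of miR-365. The level of miR-365-3p was 42.3, 54.3 and 43.4 CPM at 9 months and 28.6, 37.9 and 30.9 CPM at 6 months. For miR-193b-3p it was 23.2, 27.1 and 26.7 CPM at 9 months and 17.8, 21.5 and 15.5 CPM at 6 months. In neither miRNA did the ages overlap. The means were 46.6 ± 6.64 CPM at 9 months and 32.4 ± 4.85 CPM at 6 months for miR-365-3p, and 25.7 ± 2.12 CPM at 9 months and 18.3 ± 3.01 CPM at 6 months for miR-193b-3p (SD, n = 3 each). Their log2 differences were 0.52 ± 0.14 and 0.48 ± 0.15 (SE), with adjusted p of 0.167 and 0.255 (edgeR). Both lay below 0 in the wild type, at -0.23 and -0.31, and the differences between genotypes of 0.75 and 0.79 had an adjusted p of 0.432. The opposite arms were lower in abundance and closer to 0, with log2 differences of 0.11 for miR-193b-5p and -0.07 for miR-365-1-5p.

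A target of the tumour suppressor p53, miR-34a-5p, had 336, 359 and 361 CPM at 9 months and 237, 319 and 248 CPM at 6 months. The ages did not overlap, although library 2 at 6 months came close, and the means were 352 ± 13.9 CPM at 9 months and 268 ± 44.7 CPM at 6 months (SD, n = 3 each). Its log2 difference was 0.39 ± 0.11 (SE) with an adjusted p of 0.186 (edgeR), against 0.14 in the wild type. Its relatives from another locus lay the other way, with 651, 721 and 1035 CPM at 9 months and 729, 1257 and 1164 CPM at 6 months for miR-34c-5p, whose ages overlapped. That log2 difference was -0.38 ± 0.27 (SE), and miR-34b-5p had -0.78 ± 0.50 (SE).

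The intron of Gpc1, the gene of the heparan sulfate proteoglycan glypican-1, holds miR-149. Its arm miR-149-5p, at chr1:92850381-92850403, had 471, 425 and 486.2 CPM at 9 months and 332, 346.3 and 402 CPM at 6 months. All 3 libraries at 9 months were higher, with means of 461 ± 31.97 CPM at 9 months and 360 ± 37.1 CPM at 6 months (SD, n = 3 each). The log2 difference was 0.34 ± 0.12 (SE) with an adjusted p of 0.461 (edgeR), and without libraries 1 and 2 at 6 months it was 0.18. In the wild type it was -0.16. The message of Gpc1 itself had a log2 difference of 0.07 ± 0.04 (SE) on the log2(FPKM + 0.25) scale.

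Hosted by the glutamate receptor gene Grid1, miR-346-5p had 33.7, 33.99 and 32.2 CPM at 9 months and 25.6, 31.2 and 21.4 CPM at 6 months. In the Dlk1-Dio3 domain, miR-496a-3p had 106.1, 112.4 and 99.4 CPM at 9 months and 89.3, 92.8 and 68.3 CPM at 6 months. The ages did not overlap for either, and library 3 at 6 months was the lowest for both. Their log2 differences were 0.35 ± 0.12 and 0.33 ± 0.13 (SE), with adjusted p of 0.434 and 0.507 (edgeR). Without library 3 at 6 months these were 0.22 and 0.21, and without libraries 1 and 2 both were 0.62. At lower coverage, miR-12184-5p had 55, 43 and 44 reads at 9 months and 20, 38 and 25 reads at 6 months, and miR-7224-3p had 27, 12 and 9 reads at 9 months and 6, 8 and 3 reads at 6 months.

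**Figure D4:**
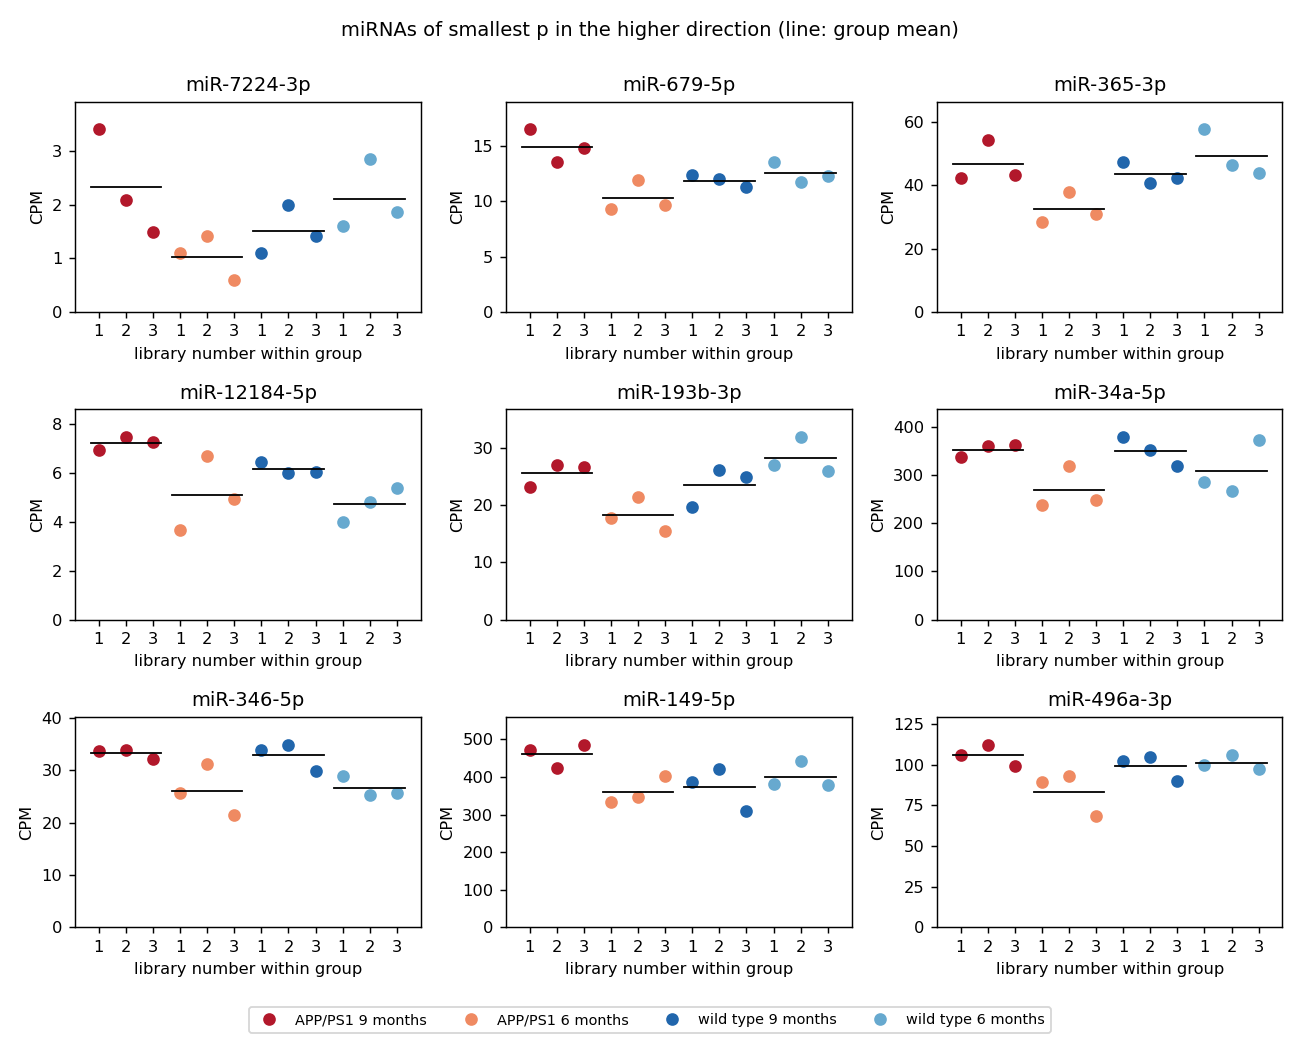
CPM (y axis) of 9 miRNAs with a higher level at 9 months in APP/PS1 mice is shown for each of the 12 libraries (points), with lines at the group means. In APP/PS1 mice the points of the ages do not overlap in any of the 9 panels. In the wild type they overlap in all but those of miR-12184-5p and miR-346-5p. The 9 are among the higher miRNAs of smallest p in APP/PS1 mice, so the lack of overlap there was partly fixed by that choice. They were not picked by the wild-type age difference, so the panels cannot decide whether the genotypes differ.

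Abundant miRNAs were represented among the 25 by miR-100-5p, which shares the seed ACCCGUA with miR-99a-5p and is transcribed with let-7a-2 and miR-125b-1. It had 11097, 10779 and 9203 CPM at 9 months and 8598, 8316 and 6960 CPM at 6 months. The ages did not overlap, and the log2 difference of 0.37 ± 0.15 (SE) had an adjusted p of 0.51 (edgeR), beside 0.56 in the wild type with an adjusted p of 0.201. With the same seed, miR-99a-5p had 66196, 61083 and 69626 CPM at 9 months and 58982, 61907 and 67470 CPM at 6 months. Its ages overlapped and its log2 difference was 0.05 ± 0.11 (SE).

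Both arms of miR-152 were among the 25. The main arm miR-152-3p, which shares the seed CAGUGCA with miR-148a-3p and miR-148b-3p, had 343, 222.5 and 331 CPM at 9 months and 199, 217 and 248 CPM at 6 months. Its ages overlapped because library 2 at 9 months lay below library 3 at 6 months. The log2 difference was 0.42 ± 0.16 (SE) in APP/PS1 mice and 0.48 in the wild type, and for miR-152-5p it was 0.56 ± 0.23 (SE) in APP/PS1 mice and 0.88 in the wild type. Among the relatives, miR-148a-3p had 0.05 ± 0.20 (SE) and miR-148b-3p -0.16 ± 0.08 (SE), the second with every 9-month library below every 6-month library.

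Apart from both families, 7 miRNAs had an unadjusted p under 0.05 and a lower level at 9 months. The best covered was miR-136-3p of the Dlk1-Dio3 domain, with 777, 820 and 791 CPM at 9 months and 893, 1273 and 975 CPM at 6 months. The ages did not overlap and library 2 at 6 months was the highest, with means of 796 ± 22.01 CPM at 9 months and 1047 ± 199.9 CPM at 6 months (SD, n = 3 each). The log2 difference was -0.39 ± 0.11 (SE) with an adjusted p of 0.173 with edgeR and 0.0257 with DESeq2, and 0.02 in the wild type. The difference between the genotypes was -0.42 with an adjusted p of 0.631 (edgeR). Without libraries 1 and 2 at 6 months the age difference in APP/PS1 mice was -0.31. The row of miR-3071-5p, named here after its values were seen, lies on the other strand of the same 19 bases and had a log2 difference of -0.40. In the 6 libraries it had 31173 reads beside 32742 reads of miR-136-3p, so these rows are not separate evidence.

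Such overlaps concerned 19 pairs of tested miRNAs that share at least 15 bases on opposite strands in RefSeq. In 9 of the 19 the reads agreed within 1%, and in 4 they were identical. The largest was miR-9-5p, an miRNA of neural progenitors and neurons, with 4545356 reads in the 6 libraries, beside 4536135 for miR-9b-3p. Their sequences are shown because a reader can see that one is the reverse complement of most of the other, and reads without strand cannot be told apart.
miR-9-5p: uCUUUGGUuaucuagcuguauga
miR-9b-3p: aUACAGCUagauaaccaaaga

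The 10 most abundant rows, which hold 56.9% to 59.2% of the reads of a library and count miR-9 in both of these rows, had log2 differences near 0. The most abundant, miR-9-5p, had 128685, 131035 and 119070 CPM at 9 months and 128749, 128765 and 120658 CPM at 6 months, with a log2 difference of -0.01 ± 0.10 (SE). Its ages overlapped throughout. The neuronal miR-128-3p averaged 39205 ± 1223 CPM at 9 months and 39407 ± 3394 CPM at 6 months, and miR-127-3p of the Dlk1-Dio3 domain averaged 41464 ± 3685 CPM at 9 months and 41161 ± 1886 CPM at 6 months (SD, n = 3 each). Over all 10, log2 differences lay between -0.07 and 0.05 and adjusted p between 0.966 and 0.993 (edgeR).

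Groups of miRNAs by tissue, family or locus were read by their counts beside those of all tested rows, where 261 of 560 lay below 0, with 25 higher and 19 lower at an unadjusted p under 0.05. Of 15 tested members of the list for choroid plexus and other epithelia, 14 lay below 0 and 8 had a p under 0.05, all of them rows of the miR-200 family. Messages of 12 choroid plexus genes, Ttr foremost, summed to 117.8, 77.4 and 299.999 FPKM at 9 months and 102.5, 334.7 and 307.2 FPKM at 6 months. Of the 3 libraries at 6 months, library 1 was the highest in the miR-200 family and the lowest in these messages. Wild-type sums were 313.6, 347.9 and 357.5 FPKM at 9 months and 6.23, 297.8 and 13.2 FPKM at 6 months, where libraries 1 and 3 were again the highest in the miR-200 family and the lowest in these messages. Other libraries went the other way. APP/PS1 library 2 at 6 months was above library 3 in both the miR-200 family and these messages. At 9 months library 3 was the highest of its group in both, in APP/PS1 mice and in the wild type. The part of these messages in the miRNA result was not tested. The sensory list had 4 of 5 below 0, the 4 rows of the miR-183 cluster. Among 13 tested immune and microglial miRNAs, 9 lay above 0 and 0 had an unadjusted p under 0.05, with a median log2 difference of 0.07. The inflammatory miR-146a-5p had 747, 887 and 796 CPM at 9 months and 648, 663 and 817 CPM at 6 months, with overlap and a log2 difference of 0.18 ± 0.19 (SE), or -0.03 without libraries 1 and 2 at 6 months. For miR-155-5p, induced in activated microglia, the log2 difference was 0.40 ± 0.37 (SE), or -0.21 without those libraries, and for miR-21a-5p it was 0.12 ± 0.08 (SE). Summed microglial messages were 148.5, 171.5 and 141.4 FPKM at 9 months and 129.2, 126.2 and 137.5 FPKM at 6 months.

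Neuronal miRNAs were evenly split, with 12 of 24 above 0 and 12 below, and a median of 0.00. One of them had a p under 0.05, miR-129-2-3p, with 465.8, 502.4 and 453.1 CPM at 9 months and 370, 430 and 413 CPM at 6 months and no overlap. Its log2 difference was 0.22 ± 0.10 (SE) with an adjusted p of 0.628 (edgeR). Activity-induced miRNAs had 6 of 8 below 0, none with a p under 0.05. Among them miR-132-3p, induced by CREB, averaged 1389 ± 61.0 CPM at 9 months and 1486 ± 43.6 CPM at 6 months (SD, n = 3 each), a log2 difference of -0.11 ± 0.08 (SE).

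Glial lists showed 0 members with a p under 0.05. Of 11 tested oligodendrocyte miRNAs, 9 lay above 0 with a median of 0.03, and miR-338-3p had a log2 difference of 0.24 ± 0.14 (SE), or -0.06 without libraries 1 and 2 at 6 months. Of 23 astrocyte miRNAs, 14 lay above 0 with a median of 0.02. The lowest p of that list was that of miR-29c-5p, with 253, 254 and 238 CPM at 9 months and 180, 185 and 234 CPM at 6 months. Its ages did not overlap, and its log2 difference was 0.30 ± 0.14 (SE) with an adjusted p of 0.637 (edgeR). The miR-29 family, which includes repressors of the beta-secretase message, had 6 of 7 members above 0 and a median of 0.14. Its members miR-29a-3p, miR-29b-3p and miR-29c-3p, which share the seed AGCACCA, lay between -0.04 and 0.02 with a median of 0.02. The higher values were those of the opposite arms, between 0.14 and 0.30. Over a wider list of miRNAs tied to the amyloid pathway, 22 of 34 lay above 0, 0 had a p under 0.05 and the median was 0.03. Blood cell miRNAs had 8 of 10 above 0, with 322.6, 822.6 and 404.3 CPM of the erythroid miR-451a at 9 months and 230, 450 and 419 CPM at 6 months.

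The let-7 family, which promotes differentiation, had 11 of 17 members below 0 and a median of -0.06. Of 81 tested miRNAs of the Dlk1-Dio3 domain, 50 lay above 0, 5 were higher and 1 was lower at a p under 0.05, and the median was 0.04. Mirg and Rian, long transcripts of that domain, were named after their values were seen. Mirg was at 5.53, 6.22 and 6.92 FPKM at 9 months and 4.56, 5.29 and 5.13 FPKM at 6 months, without overlap, and its log2 difference of 0.30 ± 0.14 (SE) had an adjusted p of 0.644 (limma). Rian overlapped between the ages. The Sfmbt2 cluster had 12 of 16 members above 0 with a median of 0.22, beside -0.59 in the wild type, and its members have few reads and near-identical sequences. That median was 0.0374 without library 3 at 6 months, 0.0124 with a mean of at least 10 CPM, 0.00377 with only the 6 APP/PS1 libraries and -0.00867 without libraries 1 and 2 at 6 months. Its identical rows miR-467a-3p and miR-467d-3p had 17, 8 and 11 reads at 9 months and 2, 7 and 4 reads at 6 months. Of 10 tested endothelial miRNAs 5 lay above 0, and of 5 tested muscle miRNAs 4 did.

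**Figure D5:**
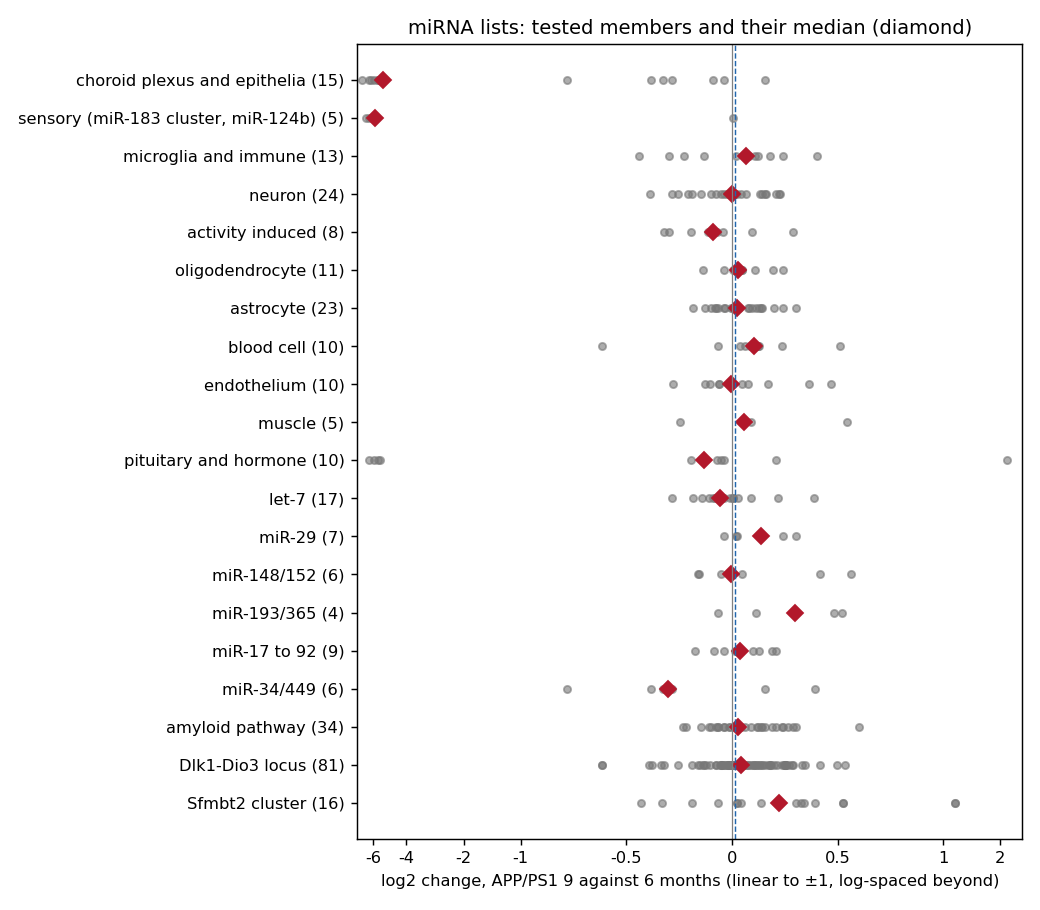
Log2 differences between APP/PS1 brains of 9 and 6 months are shown for the tested members of 20 lists (points) with the median of each list (diamond), on an axis that is linear near 0 and logarithmic beyond. Medians lie near 0 except for the epithelial and sensory lists, at -5.30 and -5.88.

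Age differences were also set against those of the wild type, which share no library with them. In the wild type 0 of 560 miRNAs were called (0.0%) and 50 had an unadjusted p under 0.05 (8.93%). The test of the difference between the genotypes' age effects called 0 (0.0%), with 35 at an unadjusted p under 0.05 (6.25%). DESeq2 called 10 in the wild type and 0 for the difference between genotypes. Across the 560 miRNAs, which are not independent replicates, the log2 age differences of the genotypes had a Pearson correlation of 0.84 and a Spearman correlation of 0.15. Without the 12 rows of both families these were 0.35 and 0.10 over 548 miRNAs. The smallest p for the difference between genotypes included miR-134-3p, with 0.29 in APP/PS1 mice and -0.74 in the wild type, and miR-350-5p, with -0.30 in APP/PS1 mice and 0.77 in the wild type. Each had an adjusted p of 0.432 (edgeR) for the difference.

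Arms of one hairpin and messages of host genes were read as well. Of 156 hairpins with both arms tested, 89 had the same sign in both arms, or 57.1%. Of 40 tested messages of genes that hold an miRNA, 0 were called with limma on log2(FPKM + 0.25), in a fit where 0 of 13593 messages were called (0.0%) and 1784 had an unadjusted p under 0.05 (13.1%). There were 6 host messages at an unadjusted p under 0.05. In 47 of 82 pairs of miRNA and host, or 57.3%, the sign was the same. The arms miR-128-1-5p and miR-128-2-5p were each set beside both R3hdm1 and Arpp21, with the same sign in each pair. Some arms were thus paired with a gene that does not hold their hairpin, and hosts such as Sfmbt2 recur. The 82 pairs are therefore not separate readouts, and their share cannot show whether miRNA and host move together. The message of Eml2, a microtubule-associated protein whose gene holds miR-330, averaged 44.2 ± 1.16 FPKM at 9 months and 35.4 ± 3.43 FPKM at 6 months (SD, n = 3 each). Its log2 difference was 0.32 ± 0.07 (SE) with an adjusted p of 0.137 (limma), beside 0.16 for miR-330-3p and 0.19 for miR-330-5p.

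Some miRNAs too low to be tested were seen at 1 age only. Of the 851 rows not tested, 7 were seen in all 3 libraries at 9 months and in none at 6 months, with 1 to 5 reads a library. They include miR-7004-5p with 5, 2 and 3 reads and miR-15a-3p with 2, 3 and 1. The reverse held for 1 row, with 3, 1 and 2 reads at 6 months. These rows were below the filter and were not tested. Every 9-month library had more reads in total than every 6-month library, and the part of depth in these counts was not tested.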

How the data were processed

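Small RNA was sequenced from 12 libraries in 4 groups, and per the labels' protocols tissue was extracted with Trizol and prepared with an Illumina TruSeq kit. Read counts per miRNA were deposited as whole numbers, beside values named TPM by the authors that equal the count per library total with no length term and are called CPM here. Long RNA values were deposited by the authors as FPKM. Bowtie 0.12.2 and mm8 are named, without a role, in the submitters' processing notes. The counting tool, annotation and strand setting are stated in none of the sources used.

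Groups were taken from the labels. Counts were fitted over all 12 libraries and 4 group means with edgeR 4.0.16 (quasi-likelihood test, TMM scaling, filterByExpr; R 4.3.3), two-sided, with Benjamini-Hochberg adjustment over all tested miRNAs and a threshold of 0.05. Each standard error is the log2 difference divided by the root of the F statistic and so restates the test. DESeq2 1.42.0 and limma 3.58.1 (voom) were alternatives. Messages with a mean of at least 0.5 FPKM were fitted with limma on log2(FPKM + 0.25), which understates differences of low genes. The scripts were tested on simulated data. No molecular tags are described. The standard errors and p-values reflect the spread among libraries as estimated in the fit, and that spread may be technical.

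The miRNAs described are those with the smallest p, at most 10 per direction with a mean of at least 10 reads, the 10 most abundant, up to 4 of smallest p per list and up to 6 for the difference between genotypes. The members and lists were chosen with earlier results of these data known. Alternatives added after seeing the data leave out libraries that stand apart or the rows of both families.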

Additional observations from a re-analysis of the deposited data

How the results depend on the processing

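Low rows rest on few reads, and 3 libraries a group limit which differences can be told from the spread. In APP/PS1 mice, 0 miRNAs were called between the ages with another scaling, a mean of at least 10 CPM, limma voom, only the 6 APP/PS1 libraries, or leaving out both added sets of libraries. Without the filter on low counts there were 17 (2 higher and 15 lower, 13 of them in both families), in a fit whose prior degrees of freedom became infinite. DESeq2 called 14, and leaving out one library at a time gave 0 to 12, the 12 being without library 3 at 6 months. In the wild type the count was 30 without the filter, 10 with DESeq2, 1 with limma voom, 12 without APP/PS1 libraries 1 and 2 at 6 months, and 0 to 2 leaving out one library. The test of the difference between genotypes called 15 without the filter and 0 to 2 leaving out one library, the 2 being without wild-type library 3 at 9 months. The causes were not tested.

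Same-numbered APP/PS1 libraries had correlations of deviations from their group means of -0.19, -0.13 and -0.35, and different-numbered ones of -0.17 to 0.28. Deviations within a group of 3 sum to 0, so these values cannot decide whether the numbers pair the libraries. With the replicate block 0 miRNAs were called in each comparison, and the number at an unadjusted p under 0.05 was 27 in APP/PS1 mice, against 44 without the block.

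List medians moved as follows. The epithelial list was at -0.802 with only the 6 APP/PS1 libraries, -0.161 without libraries 1 and 2 at 6 months, -0.312 without the rows of both families, and -5.97 to -2.96 leaving out one library. The sensory list was at 0.105 without libraries 1 and 2 and -0.0174 without the families' rows. The let-7 list was at 0.00724 with upper-quartile scaling, -0.0863 with only 6 libraries, 0.00288 without libraries 1 and 2, -0.0789 without the families' rows and -0.102 to 0.0056 leaving out one. The list of miR-148 and miR-152 was at -0.128 without libraries 1 and 2 and at -0.157 to 0.113 leaving out one. The Sfmbt2 list was at 0.0124 with at least 10 CPM, 0.00377 with only 6 libraries, -0.00867 without libraries 1 and 2 and 0.0374 to 0.319 leaving out one.

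Without APP/PS1 libraries 1 and 2 at 6 months the log2 difference took the opposite sign for miR-183-5p (0.087), miR-200a-3p (0.274), miR-96-5p (0.248), miR-182-5p (0.18), miR-200b-3p (0.383), miR-141-3p (2.25), miR-9-5p (0.0497), miR-9b-3p (0.0498), miR-99a-5p (-0.0584), miR-148a-3p (-0.102), miR-218-5p (-0.0714), miR-26a-5p (-0.152), miR-22-3p (0.105), miR-155-5p (-0.214), miR-146a-5p (-0.0287), miR-338-3p (-0.0557), miR-10a-5p (-0.184), miR-499-5p (0.132), miR-1b-5p (-0.0716), miR-141-5p (0.0231), let-7e-3p (0.00288), miR-193b-5p (-0.371) and miR-466d-5p (-0.454). Values near 0 took the opposite sign in other settings too. These were, with library totals, miR-9-5p (0.00236), miR-9b-3p (0.00203) and miR-127-3p (0.0106). With the upper quartile they were miR-9-5p (0.0632), miR-9b-3p (0.0629), let-7f-5p (0.0022), miR-127-3p (0.0557) and miR-128-3p (0.0356), and without the filter miR-9-5p (0.004997), miR-9b-3p (0.00468) and miR-127-3p (0.0111). With only the 6 APP/PS1 libraries they were let-7g-5p (-0.00099) and miR-218-5p (-0.0199). The sign was also opposite for miR-218-5p (-0.0057) with DESeq2's size factors, for miR-218-5p (-0.00369) with a mean of at least 10 CPM, for miR-218-5p (-0.00568) with DESeq2 and for miR-218-5p (-0.0127) without the families' rows.

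Leaving out one library at a time gave ranges that cross 0 for miR-9-5p (-0.0817 to 0.0719), miR-9b-3p (-0.0818 to 0.0717), miR-99a-5p (-0.0436 to 0.104), let-7f-5p (-0.195 to 0.00417), miR-127-3p (-0.0806 to 0.0407), miR-148a-3p (-0.138 to 0.15), miR-128-3p (-0.151 to 0.0448), let-7g-5p (-0.0222 to 0.0971), miR-218-5p (-0.067 to 0.0481), miR-26a-5p (-0.108 to 0.133), miR-451a (-0.0163 to 0.764), miR-486a-3p (-0.0579 to 0.234), miR-133a-3p (-0.0367 to 0.151), miR-29b-1-5p (-0.102 to 0.454), miR-193b-5p (-0.095 to 0.407), miR-365-1-5p (-0.259 to 0.16) and miR-93-3p (-0.488 to 0.009996).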
